A study of Mus musculus with 12 samples.

Results

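The 9 core macrophage and monocyte identity genes Adgre1, Csf1r, Csf1, Cd68, Cd14, Spi1, Mpeg1, Cd53 and Lyz2 were examined in mouse epididymal white adipose tissue (eWAT). They were chosen by name for this lineage, with earlier results of these data known. Csf1 is among them as the ligand of the receptor that Csf1r encodes. All 9 were found among the 22947 genes of the deposited table. The libraries came from male C57BL/6J mice that were individually housed, divided into groups at random and were 21 weeks old after 16 weeks of diet. The 4 groups were the normal diet (ND), the high-fat diet (HFD), the HFD plus an ethanol extract of chrysanthemum leaf (CLE) at 1.5% of the diet by weight and the HFD plus luteolin (LU), a plant flavone, at 0.003% by weight, so the CLE and LU mice also ate the HFD. Each group held 3 mice with a library each, and the study's methods describe these mice as representative of their group.

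Macrophages are phagocytes that arise from embryonic precursors or from blood monocytes, and in fat they take up lipid and cell debris. Their survival depends on the CSF1 receptor, and their gene program depends on the transcription factor PU.1. In obese fat of mice they are known to gather around dying adipocytes. In bulk tissue, fewer cells of a type and less RNA per cell cannot be told apart, so every value below is a level in whole eWAT.

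Levels are given as FPKM (fragments mapped to a transcript, scaled to its length and to the size of the library), with the transcripts of each gene summed. Levels of different genes can be set side by side on this scale. All 9 genes passed the filter of at least 1 FPKM in at least 3 libraries, as did 12775 genes in all. Differences were tested with limma on log2(FPKM + 1), and calls required both an adjusted p (Benjamini-Hochberg) below 0.05 and a change of more than 1.5-fold. The p-values set each difference against the spread between these mice, pooled over the groups. As the mice were described as representative, this spread may differ from that of all mice of a group. The table used here holds no read counts, and the sequencing depth is unknown. The letter R, with no meaning given, stands in the labels of 2 ND libraries (mice 3 and 4), 1 CLE library (mouse 4) and 1 LU library (mouse 2). The column headers of these libraries also carry a suffix that no other column used here has, again with no meaning given. No HFD library carries the letter or the suffix, so a comparison with HFD cannot be made among those libraries alone. The sum of the 8 adipocyte markers was 31489 to 33322 FPKM in ND, 16125 to 18209 in HFD, 24819 to 27221 in CLE and 23501 to 28586 in LU. Of the 7 markers of epididymis epithelium, Lcn5 and Spint4 were at 0 in every library and the sum of the list was at most 5.69 FPKM.

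Of the 9 genes, 8 were called higher in HFD than in ND, all but Csf1. Cd68 rose 17.9-fold, Adgre1 16.5-fold and Mpeg1 15.4-fold in mean FPKM, while Cd14 rose 1.54-fold. Among all tested genes, 14.9% were called higher in HFD. For all 9 genes every HFD library lay above every ND library, which held for 30.2% of all genes. The median log2 difference of the 9 genes was 2.77, and that of all tested genes was -0.02.

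Both supplements lowered the same 8 genes against the HFD. In CLE 8 of 9 were called lower, where 10.1% of all tested genes were, and the median log2 difference was -1.90 against 0.01 for all genes. In LU 8 of 9 were called lower, where 7.64% of all tested genes were, and the median was -1.37 against 0.03. The CLE and LU comparisons share the same 3 HFD mice. For these 8 genes all CLE libraries and all LU libraries lay below all HFD libraries, which held for 26.2% and 22.1% of all genes. Csf1 was not called in any of these comparisons.

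**Figure D1:**
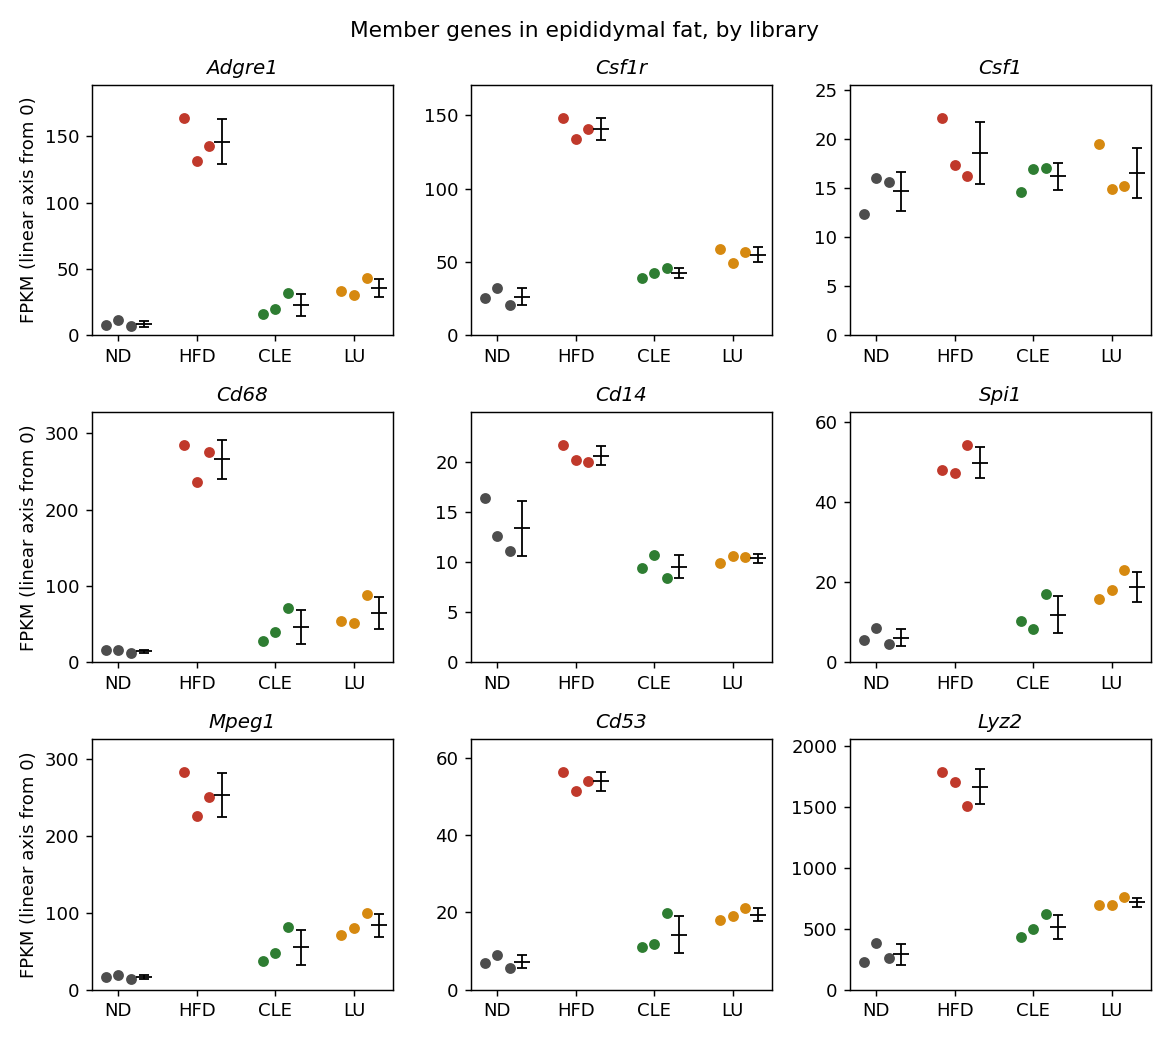
FPKM of each gene in the 12 libraries (y axis, linear from 0) by group (x axis), with 1 point per mouse and the mean with its SD (n = 3) beside the points. For 8 genes the HFD points lie above all others, whereas the Csf1 points of the 4 groups lie between 12.4 and 22.2.

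**Figure D2:**
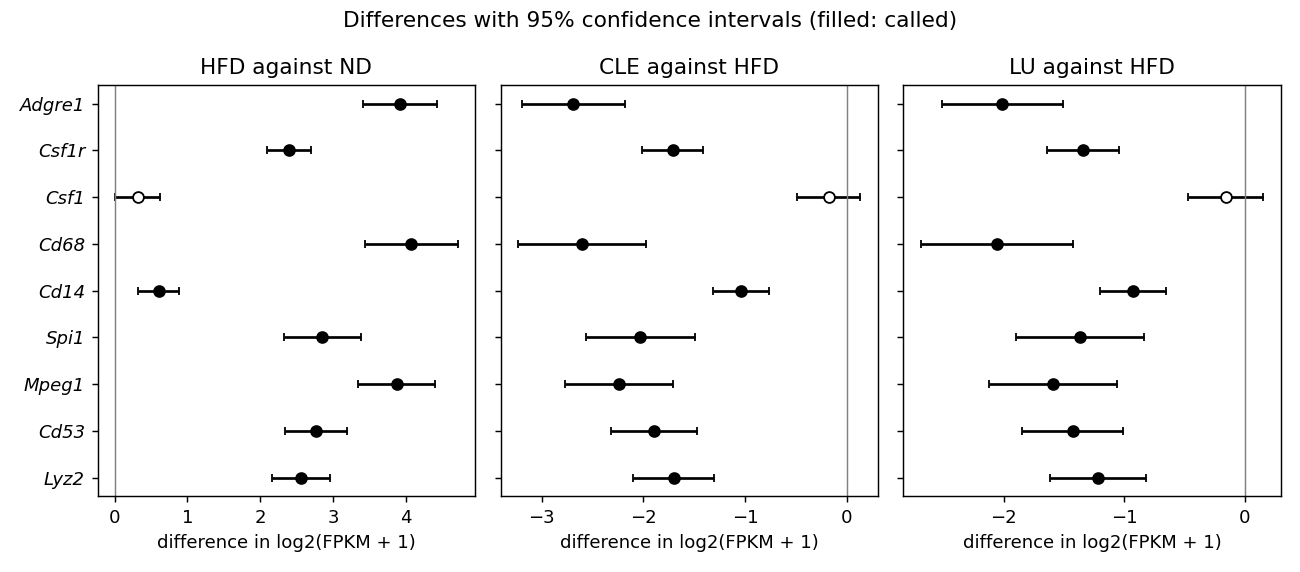
Difference in log2(FPKM + 1) with its 95% confidence interval (x axis) for each gene (y axis) in 3 comparisons, with filled points for called genes. The open points are Csf1, at 0.32, -0.18 and -0.16, and the differences of the other 8 genes lie on the right in HFD against ND and on the left under both supplements.

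The order of the levels changed with the diet. In ND, Lyz2 had the highest mean at 289 FPKM, followed by Csf1r at 26.4, Mpeg1 at 16.4, Cd68 at 14.9, Csf1 at 14.7, Cd14 at 13.4, Adgre1 at 8.86, Cd53 at 7.18 and Spi1 at 6.20. From Mpeg1 downward, the ND libraries of each gene overlapped those of the next in this order. In HFD, Lyz2 stood at 1667, Cd68 at 266, Mpeg1 at 253, Adgre1 at 146, Csf1r at 141, Cd53 at 53.9, Spi1 at 49.9, Cd14 at 20.6 and Csf1 at 18.6. Cd68 and Mpeg1 overlapped, as did Adgre1 with Csf1r, Cd53 with Spi1, and Cd14 with Csf1. Cd68, Mpeg1 and Adgre1 thus stood above Csf1r on average in HFD and below it in ND, although the HFD libraries of Adgre1 and Csf1r overlapped.

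The mice of a group tended to rank alike over these genes. ND mouse 3, HFD mouse 12 and CLE mouse 11 each had the highest value of their group for 8 of the 9 genes, and LU mouse 8 for 6. CLE mouse 2 had the lowest value of its group for 7 genes. The sum of the 9 genes spanned 334 to 509.7 FPKM in ND, 2460 to 2816 in HFD, 596 to 917 in CLE and 969 to 1116 in LU.

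Csf1r encodes the receptor tyrosine kinase for the growth factors CSF1 and IL-34, on which macrophages depend. It lies on chromosome 18. Its level was 25.8, 32.6 and 21.0 FPKM in ND and 149, 134 and 140 in HFD. With CLE it was 38.9, 42.6 and 45.7, and with LU 58.9, 49.5 and 57.1. The 4 groups did not overlap at any point and stood in the order HFD, LU, CLE and ND. The log2 difference was 2.39 for HFD against ND (SE 0.14, adjusted p = 6.0e-07), -1.71 for CLE against HFD (adjusted p = 2.0e-05) and -1.34 for LU against HFD (adjusted p = 1.5e-04).

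Csf1 encodes the ligand of this receptor, macrophage colony-stimulating factor, and lies at chr3:107741048-107760469 on the minus strand (GRCm38). Its level was 12.4, 16.0 and 15.6 FPKM in ND, 22.2, 17.3 and 16.2 in HFD, 14.6, 16.9 and 17.1 in CLE and 19.5, 14.9 and 15.2 in LU. HFD and ND did not overlap, but the lowest HFD mouse and the highest ND mouse lay next to each other, and CLE and LU overlapped both groups. The log2 difference for HFD against ND was 0.32 (95% confidence interval 0.0032 to 0.63, adjusted p = 0.086). Over the alternatives it ran from 0.17 to 0.54, and Csf1 was called in none of them. The highest value came without the 4 libraries of letter R, with ND mouse 2 alone in its group, where Cd14 stood at 0.31. The intervals were -0.49 to 0.14 for CLE against HFD (adjusted p = 0.37) and -0.47 to 0.16 for LU against HFD (adjusted p = 0.45).

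The log2 ratio of Csf1 to Csf1r was -0.9997, -0.98 and -0.40 in ND and -2.69, -2.88 and -3.04 in HFD. In CLE it was -1.35, -1.28 and -1.37, and in LU -1.55, -1.67 and -1.84. The 4 groups did not overlap. HFD was lower than ND by a log2 ratio of -2.07 (SE 0.22), and CLE and LU were higher than HFD by 1.53 (SE 0.10) and 1.18 (SE 0.13). The same lack of overlap relative to Csf1r held for 97.4%, 97.2% and 96.4% of all tested genes, so the ratio largely restates the differences of Csf1r and is not particular to Csf1. The exact permutation test gave p = 0.1 (two-sided) for each, the smallest value that 3 against 3 libraries allow. The second ligand, Il34, measured 14.4 FPKM in ND, 11.3 in HFD, 18.2 in CLE and 14.9 in LU, and of the 6 comparisons it was called only in CLE against HFD (log2 difference 0.64, adjusted p = 0.032). For LU against HFD its value was 0.36 (adjusted p = 0.22), and for CLE against LU it was 0.28 (adjusted p = 0.90).

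**Figure D3:**
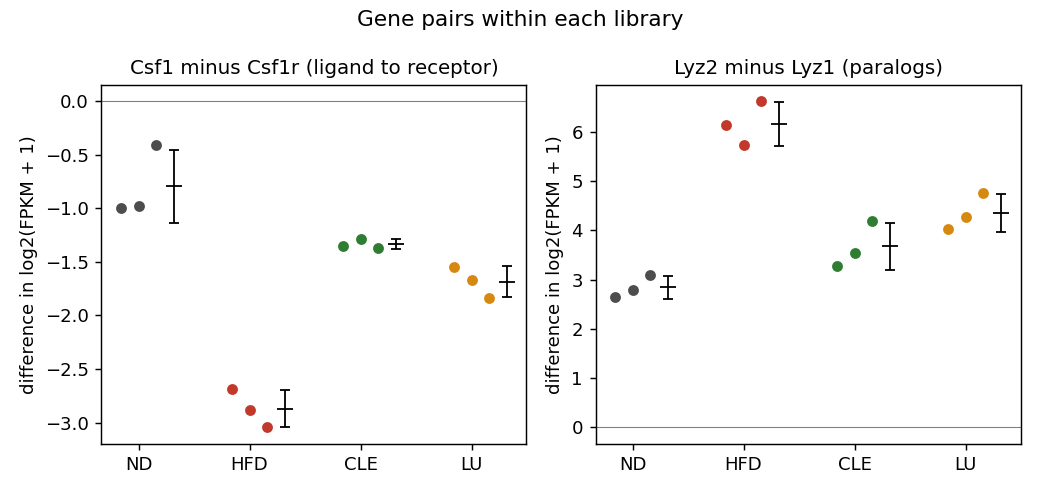
Difference in log2(FPKM + 1) between the genes of a pair in each library (y axis) by group (x axis), with 1 point per mouse and the mean with its SD (n = 3). The ligand Csf1 falls furthest below its receptor in HFD, at a mean of -2.87, and Lyz2 stands furthest above its paralog Lyz1 in HFD, at a mean of 6.17.

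Adgre1, Cd68 and Mpeg1 had the largest differences in all of these comparisons. Adgre1 encodes the F4/80 antigen, an adhesion G protein-coupled receptor used as a surface marker of mouse macrophages, and lies at chr17:57358691-57483527 on the plus strand. It measured 7.80, 11.5 and 7.34 FPKM in ND and 164, 131 and 143 in HFD. With CLE it measured 15.9, 20.1 and 31.9, and with LU 33.3, 30.7 and 43.0. HFD lay far above every other library, and the CLE and LU mice overlapped each other while lying above the ND mice. The log2 differences were 3.92 for HFD against ND (SE 0.23, adjusted p = 6.6e-07), -2.69 for CLE against HFD (adjusted p = 2.4e-05) and -2.01 for LU against HFD (adjusted p = 2.1e-04).

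Cd68 encodes a heavily glycosylated protein of endosomes and lysosomes in the LAMP family and lies at chr11:69664213-69666153 on the minus strand. It measured 15.8, 16.2 and 12.6 FPKM in ND and 285, 237 and 276 in HFD. In CLE it measured 27.7, 39.6 and 71.0, and in LU 53.9, 51.9 and 88.7. CLE mouse 11 and LU mouse 8 were the high mice of their groups, and the CLE range reached into that of LU. The mean under CLE was 17.4% of the HFD mean and that under LU 24.4%.

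Mpeg1 encodes perforin-2, a pore-forming protein of phagocytes that acts on engulfed bacteria, and lies at chr19:12460779-12465283 on the plus strand. It measured 16.9, 19.1 and 13.3 FPKM in ND and 283, 226 and 250 in HFD. In CLE it measured 37.1, 48.2 and 80.9, and in LU 71.2, 80.2 and 100.1. The CLE and LU mice lay between ND and HFD with no overlap with either. The log2 differences were 3.87 (SE 0.24), -2.24 and -1.59 in the same order, with adjusted p = 7.5e-07, 6.0e-05 and 8.6e-04.

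Spi1 encodes PU.1, the transcription factor that sets up the myeloid program, and lies at chr2:91082390-91115756 on the plus strand. It measured 5.52, 8.49 and 4.61 FPKM in ND and 47.9, 47.4 and 54.3 in HFD. In CLE it measured 10.3, 8.38 and 17.2, and in LU 15.8, 18.001 and 23.0. CLE mouse 4 lay just below the highest ND mouse, so these groups overlapped, whereas the LU mice lay above all ND mice. The log2 difference was 2.85 for HFD against ND (SE 0.24, adjusted p = 3.8e-06), -2.03 for CLE against HFD (adjusted p = 1.1e-04) and -1.37 for LU against HFD (adjusted p = 0.0022).

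Cd53 encodes a tetraspanin of the leukocyte surface and lies at chr3:106759921-106790149 on the minus strand. It measured 6.78, 9.03 and 5.73 FPKM in ND, 56.4, 51.5 and 53.9 in HFD, 10.97, 11.9 and 19.7 in CLE and 18.1, 19.0 and 21.2 in LU. All CLE and LU mice lay above the ND mice and below the HFD mice. The log2 differences were 2.77 (SE 0.19), -1.90 and -1.43 in the same order, with adjusted p = 1.1e-06, 4.6e-05 and 4.7e-04.

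Lyz2 encodes the lysozyme of macrophages and neutrophils, an enzyme that cleaves bacterial cell walls, and lies at chr10:117277331-117282321 on the minus strand. It measured 227, 384 and 256 FPKM in ND and 1787, 1709 and 1506 in HFD. In CLE it measured 431, 495 and 625, and in LU 698, 694 and 758. The 4 groups did not overlap. The log2 differences were 2.56 (SE 0.18), -1.70 and -1.21 in the same order, with adjusted p = 1.3e-06, 5.9e-05 and 8.0e-04.

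The neighbouring paralog Lyz1, a lysozyme best known from Paneth cells of the gut, went the other way. It measured 35.5, 54.9 and 29.1 FPKM in ND, 24.4, 31.0 and 14.3 in HFD, 43.4, 41.3 and 33.0 in CLE and 42.0, 35.1 and 26.9 in LU. It fell in HFD against ND (log2 difference -0.77, adjusted p = 0.039) and rose with CLE (0.79, adjusted p = 0.0496), while for LU the value was 0.60 (adjusted p = 0.14). HFD and ND overlapped, in that HFD mouse 15 lay above ND mouse 4. The log2 ratio of Lyz2 to Lyz1 was 2.64 to 3.10 in ND, 5.74 to 6.63 in HFD, 3.28 to 4.20 in CLE and 4.02 to 4.77 in LU, and the HFD libraries overlapped no other group. This ratio restates the separate differences of both genes. The share of all tested genes with the same lack of overlap relative to Lyz1 was not counted. Of the 1217 stretches of 100 bases in the annotated Lyz2 transcript, 24 (1.97%) also occur in a Lyz1 transcript, and the main transcripts of the other 8 genes share none with another gene. The split of reads between Lyz1 and Lyz2 in those shared stretches is uncertain.

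The promoters of this pair are shown because their genes differed in direction. The 250 bases before each start are given from RefSeq (GRCm38.p6) on the gene's own strand, for Lyz2 from chr10:117282273-117282522 and for Lyz1 from chr10:117292869-117293118, both on the minus strand. Capitals mark the longest run that is identical at the same place in both.
Lyz2: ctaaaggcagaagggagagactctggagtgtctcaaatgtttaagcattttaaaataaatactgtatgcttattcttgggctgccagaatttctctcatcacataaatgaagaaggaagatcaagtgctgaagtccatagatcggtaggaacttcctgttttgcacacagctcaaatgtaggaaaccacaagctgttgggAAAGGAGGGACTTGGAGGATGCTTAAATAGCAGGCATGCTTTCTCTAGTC
Lyz1: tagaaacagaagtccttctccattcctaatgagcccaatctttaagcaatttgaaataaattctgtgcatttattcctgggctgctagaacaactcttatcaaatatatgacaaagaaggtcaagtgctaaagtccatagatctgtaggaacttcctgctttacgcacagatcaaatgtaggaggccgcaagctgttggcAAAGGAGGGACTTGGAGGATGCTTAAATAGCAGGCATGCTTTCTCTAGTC
Without gaps, 152 of the 250 bases (60.8%) are the same, and the run in capitals covers the last 50 bases before the RefSeq start. The annotated Lyz2 gene given above reaches to 117282321, so most of this run lies within it.

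Promoters of 5 of the 9 genes were used (Csf1, Cd68, Cd53, Mpeg1 and Lyz2), and 3 of them are printed to set genes that moved together beside Csf1, which was not called. Each was searched on both strands for GAGGAA, the core that PU.1 is known to bind, and for the longer GAGGAAGT, which contains it. Cd68 comes from chr11:69666171-69666420, Cd53 from chr3:106790150-106790399 and Csf1 from chr3:107760470-107760719, all on the minus strand, and capitals mark GAGGAA.
Cd68: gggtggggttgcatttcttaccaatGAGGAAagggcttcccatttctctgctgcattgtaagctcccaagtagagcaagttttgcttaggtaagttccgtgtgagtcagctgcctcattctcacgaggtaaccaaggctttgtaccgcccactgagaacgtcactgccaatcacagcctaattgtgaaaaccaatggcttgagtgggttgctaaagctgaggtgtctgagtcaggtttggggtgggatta
Cd53: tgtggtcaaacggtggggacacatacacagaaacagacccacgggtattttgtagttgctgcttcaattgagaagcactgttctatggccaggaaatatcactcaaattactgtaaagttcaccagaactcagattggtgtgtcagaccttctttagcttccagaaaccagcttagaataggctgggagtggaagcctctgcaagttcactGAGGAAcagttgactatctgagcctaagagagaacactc
Csf1: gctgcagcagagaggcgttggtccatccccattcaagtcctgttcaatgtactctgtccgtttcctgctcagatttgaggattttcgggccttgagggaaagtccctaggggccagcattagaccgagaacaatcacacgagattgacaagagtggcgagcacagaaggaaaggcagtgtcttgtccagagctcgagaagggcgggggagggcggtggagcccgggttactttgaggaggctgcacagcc
GAGGAA occurs in Cd68 and Cd53, 2 of the 5 promoters, and in 23.3% of the 32851 promoters of the table. It is absent from Csf1 and also from Mpeg1 and Lyz2, which moved together with Cd68 and Cd53. The 2 genes printed beside Csf1 are thus the ones with a match. GAGGAAGT occurs in none of the 5 and in 2.44% of all promoters. A match is a description of the letters in this window and not evidence of binding.

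Cd14 encodes the co-receptor that passes bacterial lipopolysaccharide to TLR4 and lies on chromosome 18. It had a pattern of its own, measuring 16.4, 12.6 and 11.1 FPKM in ND, 21.7, 20.1 and 20.0 in HFD, 9.43, 10.7 and 8.45 in CLE and 9.89, 10.6 and 10.5 in LU. All CLE and LU mice lay below all ND mice, and all HFD mice above them. The log2 difference was 0.60 for HFD against ND (SE 0.13, adjusted p = 0.0021), -1.04 for CLE against HFD (adjusted p = 1.2e-04) and -0.93 for LU against HFD (adjusted p = 4.8e-04). The rise in HFD stood just over the fold limit and fell under it without HFD mouse 12 (0.57), ND mouse 3 (0.57) or ND mouse 4 (0.49), with quantile normalization (0.53) and with the letter R as a covariate (0.54). Without the 4 libraries of letter R it was 0.31 (adjusted p = 0.071), with ND mouse 2 alone in its group and its spread taken from the other groups.

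CLE and LU were compared with each other at the doses given, which differ in kind and amount. None of the 9 genes was called in limma, and 1 of all tested genes was (0.00783%). At an unadjusted p under 0.05, 6 of the 9 were lower in CLE than in LU, as were 3.90% of all tested genes. These were Adgre1, Csf1r, Spi1, Mpeg1, Cd53 and Lyz2, with log2 differences between -0.67 and -0.37 and an adjusted p of 0.89 each. All CLE mice lay below all LU mice for Csf1r and Lyz2, which held for 6.34% of all genes. The intervals reached from -1.18 to -0.17 for Adgre1 and from -0.67 to -0.07 for Csf1r. For Csf1 the interval was -0.33 to 0.29 and for Cd14 -0.39 to 0.16.

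Against the ND, 7 of the 9 genes were still called higher in LU, all but Csf1 and Cd14, where 4.97% of all tested genes were. Their log2 differences ran from 1.05 for Csf1r to 2.28 for Mpeg1. Without the libraries of letter R 6 were called higher, as Cd68 then had an adjusted p of 0.066, and Cd14 was called lower. In CLE, 6 of the 9 were called higher than in ND, where 2.06% of all tested genes were. They were Mpeg1 (1.63, adjusted p = 0.010), Cd68 (1.47, adjusted p = 0.019), Adgre1 (1.23, adjusted p = 0.017), Cd53 (0.87, adjusted p = 0.030), Lyz2 (0.86, adjusted p = 0.025) and Csf1r (0.68, adjusted p = 0.021). This count was 0 when only the CLE and ND libraries were fitted. It was also 0 without the libraries of letter R, which leaves 1 ND mouse, although the log2 differences were then 1.42 for Adgre1, 1.64 for Mpeg1 and 1.19 for Lyz2. It also rested on single mice, with 1 called without ND mouse 2 and 3 without ND mouse 4 or CLE mouse 11. Spi1 had a log2 difference of 0.83 (adjusted p = 0.068). Cd14 was lower in both, by -0.44 in CLE (adjusted p = 0.066) and -0.32 in LU (adjusted p = 0.12), without passing the test. Without the libraries of letter R it passed in both, at -0.81 in CLE (adjusted p = 0.033) and -0.59 in LU (adjusted p = 0.042), with ND mouse 2 alone in its group. For Cd14 all CLE and all LU libraries lay below all ND libraries, which held for 11.5% and 11.6% of all genes.

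To set the genes against leukocyte RNA as a whole, each was expressed relative to Ptprc, which encodes CD45, the surface phosphatase of all nucleated blood cells. Ptprc itself rose in HFD (11.04 to 52.6 FPKM, log2 difference 2.17, adjusted p = 1.4e-06). Relative to Ptprc, 7 of the 9 genes stood higher in HFD than in ND with no overlap, where 1.13% of all tested genes did, and Csf1 and Cd14 stood lower, as did 96.3%. The log2 ratio to Ptprc was higher by 1.75 for Adgre1 (SE 0.08), 1.91 for Cd68 (SE 0.15) and 1.71 for Mpeg1 (SE 0.11), and under the alternatives it went down to 0.79, 0.98 and 0.78. The other 4 of these 7 genes depended on the reference and on the transcripts counted, for Ptprc as well as for the gene itself. With Laptm5, a lysosomal membrane protein of leukocytes, in place of Ptprc, with the most abundant transcript of each gene, or without newly assembled transcripts, 3 of the 9 stood higher with no overlap, namely Adgre1, Cd68 and Mpeg1. Csf1r and Lyz2 then changed sign. The share of all tested genes was counted with Ptprc and all transcripts alone, so the counts under these alternatives have no share beside them.

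Relative to Ptprc, Adgre1 and Cd68 were lower than HFD with no overlap under both supplements and with every reference used. Adgre1 differed by -1.29 in CLE and -0.96 in LU, and Cd68 by -1.21 and -1.01. With Laptm5 as the reference these values were -0.82 and -0.54 for Adgre1 and -0.73 and -0.59 for Cd68. In all, 7 of 9 genes were lower relative to Ptprc in CLE, where 1.37% of all tested genes were, and 5 of 9 in LU, where 0.994% were. The count in CLE was 4 with the most abundant transcript, 4 without newly assembled transcripts and 3 with Laptm5. The count in LU was 2 without newly assembled transcripts and 2 with Laptm5. No share of all tested genes was counted for these alternatives. Csf1 was higher relative to Ptprc in both, as were 94.4% and 91.8% of all tested genes. The exact permutation test gives p = 0.1 for each difference without overlap, its smallest value here.

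Of 20 genes on the list of signalling partners of the CSF1 receptor and of the other colony-stimulating factors, 18 were tested. Of these, 14 rose in HFD, 13 fell with CLE and 12 fell with LU, with list medians of 1.44, -1.11 and -0.81. Tyrobp, the adaptor that signals for many myeloid receptors, rose from 30.3 to 288 FPKM and measured 63.2 in CLE and 92.1 in LU. The phosphatase gene Ptpn6 rose from 4.64 to 41.3 FPKM. The gene called higher with CLE was Il34, and Csf2 and Csf3 did not pass the filter.

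Among 25 myeloid transcription factors beside Spi1, 19 were tested. In HFD 9 rose and 2 fell, with CLE 8 fell and 2 rose, and with LU 7 fell and 2 rose. Egr2, a zinc finger factor, rose from 0.558 to 16.1 FPKM (log2 difference 3.43, adjusted p = 3.4e-05) and measured 3.10 in CLE and 4.14 in LU. Irf5, an interferon regulatory factor, rose from 6.95 to 36.5 FPKM. The list median was 0.54, -0.43 and -0.32 in the 3 comparisons.

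Beside Cd14, 15 genes of lipopolysaccharide recognition and of other Toll-like receptors and their signalling were listed. Of these, 11 rose in HFD, 6 fell with CLE and 6 fell with LU, with list medians of 0.94, -0.68 and -0.50. Cd180, a TLR4 homolog, rose from 1.14 to 23.0 FPKM, and its partner Ly86 from 8.25 to 29.2. Tlr4, the signalling receptor itself, measured 10.6 FPKM in ND, 15.1 in HFD, 10.5 in CLE and 10.5 in LU. Its log2 differences of 0.48, -0.48 and -0.50 had adjusted p = 0.011, 0.015 and 0.017 and stayed under the fold limit. Ly96, which encodes the lipopolysaccharide-binding subunit MD-2, rose in HFD (0.73, adjusted p = 0.0011) and had values of -0.33 with CLE (adjusted p = 0.083) and -0.08 with LU (adjusted p = 0.72).

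The structural relatives of the 9 genes did not move as a block. Among 18 tested tetraspanins beside Cd53, 4 rose and 2 fell in HFD, and the list median was 0.20. Cd9 rose from 42.4 to 141 FPKM and the leukocyte tetraspanin Cd37 from 4.65 to 22.5, whereas Tspan7 fell from 88.0 to 33.3. Among 13 tested adhesion receptors beside Adgre1, 2 rose and 4 fell in HFD, 4 rose with CLE, and 4 rose and 1 (Adgrg6) fell with LU. Among all tested genes 10.8% fell in HFD, 6.33% rose with CLE and 4.81% rose with LU. Adgrg2 fell from 25.5 to 4.50 FPKM (log2 difference -2.24, adjusted p = 6.0e-05). Both tested LAMP genes beside Cd68 rose in HFD, Lamp1 by 0.75 and Lamp2 by 0.64 on the log2 scale. Of the 12 lysozymes and pore formers beside Lyz2 and Mpeg1, 4 were tested and 2 fell in HFD, which were Lyz1 and the complement gene C6.

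Of 27 other leukocyte and macrophage genes, 25 rose in HFD, 25 fell with CLE and 23 fell with LU. Itgax, which encodes CD11c, rose from 2.11 to 83.8 FPKM (log2 difference 4.76, adjusted p = 1.2e-05) and measured 14.1 in CLE and 16.2 in LU. Itgam, which encodes CD11b, rose from 4.68 to 60.0 and measured 10.3 and 16.5. Mertk, a receptor for engulfing dead cells, stayed without a call at 21.1, 23.6, 24.7 and 22.8 FPKM in ND, HFD, CLE and LU (log2 differences 0.15, 0.04 and -0.05, adjusted p of at least 0.41). Of 12 tested genes of circulating monocytes, 7 rose in HFD, 5 fell with CLE and 2 fell with LU. The largest called falls with CLE were those of Chil3 (log2 difference -1.66), Fn1 (-1.11), Cx3cr1 (-1.09) and Plac8 (-0.92). With LU the called falls were those of Cx3cr1 (-0.98) and Fn1 (-0.89). Ccr2, the chemokine receptor of inflammatory monocytes, rose from 13.9 to 43.6 FPKM and measured 29.3 in CLE and 30.7 in LU, with log2 differences of -0.55 (adjusted p = 0.032) and -0.48 (adjusted p = 0.064) under the fold limit.

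**Figure D4:**
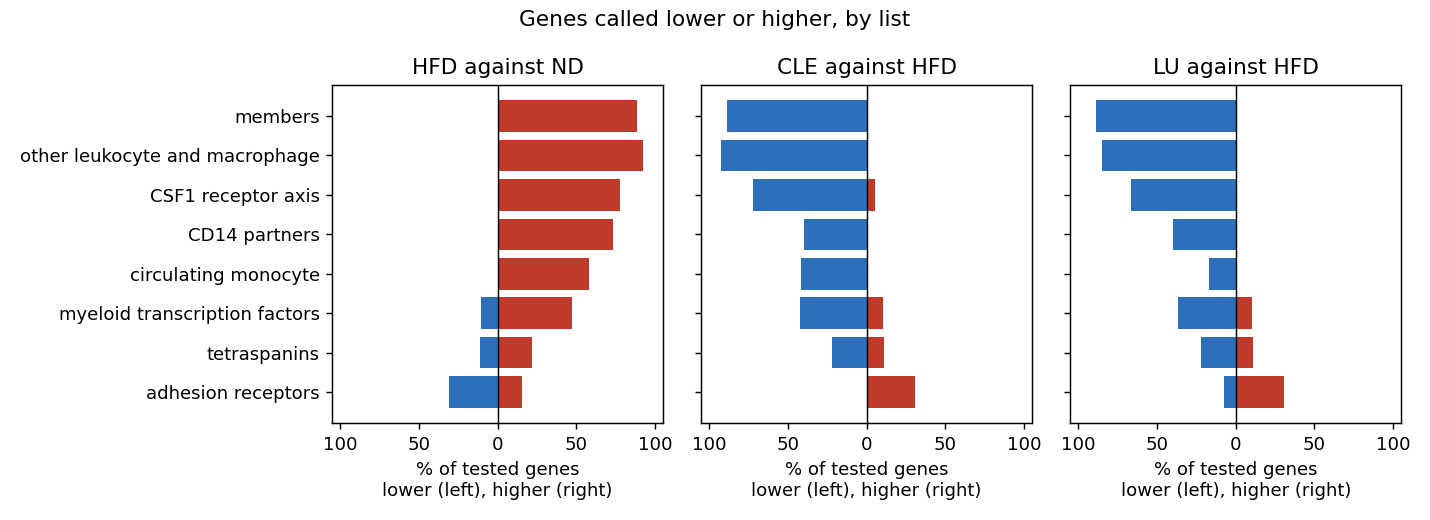
Share of the tested genes of each list (y axis) called lower (blue, left) or higher (red, right) in 3 comparisons (x axis, percent of tested genes). The lists of the 9 members, the other leukocyte genes and the CSF1 receptor axis lie mostly on one side, and the adhesion receptors hold calls on both sides in HFD against ND.

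The genes most like the 9 in pattern were found by the root mean square difference of the log2 values over the 12 libraries, after each gene was centred on its own mean. This is a description with no test. Closest to the mean profile of the 9 were P2ry6 (0.06), Nfam1 (0.08), Arl11 (0.08), Lrrc25 (0.08) and Lpxn (0.09). Of the 9 themselves, Cd53 lay closest to this profile at 0.09, followed by Lyz2 at 0.13, Csf1r at 0.14 and Spi1 at 0.20. Csf1 lay furthest at 0.85, then Cd14 at 0.78. The nearest gene was Lcp1 for Adgre1, Btk for Csf1r, Myo1f for Cd68, Ctss for Mpeg1, Cotl1 for Cd53, Selplg for Lyz2 and Yae1d1 for Csf1. For Spi1 it was Cd53, another of the 9.

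Markers of other cell types moved as well. The 8 adipocyte markers went mostly the other way, with 6 called lower and 1 higher in HFD and 6 called higher with CLE. Of 9 neutrophil markers 2 passed the filter, and their summed level was 7.55 to 15.8 FPKM in ND and 70.1 to 119.8 in HFD. S100a8 made up most of it, at a mean of 10.2 FPKM in ND and 101 in HFD, whereas Ly6g was at 0 in every library and S100a9 fell (log2 difference -0.79). Of 5 tested mast cell markers 4 rose in HFD and fell under both supplements, namely the protease genes Cpa3, Cma1, Mcpt4 and Tpsb2, while Kit fell in HFD. Of 6 B cell markers 4 did not pass the filter, and Ighm, the heavy chain of IgM, rose by 0.98. The 3 tested T cell markers held 1 call, for Trac, and the 2 tested natural killer cell markers held none. The 5 tested genes of red blood cells all fell in HFD, with a summed level of 571 to 2290 FPKM in ND and 188 to 308 in HFD. The part of these cell types in the results was not tested.

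The transcript rows behind the gene values differed in number. Csf1r, Cd14 and Cd53 rested almost wholly on a single annotated transcript, which held at least 97.8% of the gene's FPKM in every library. For Lyz2, a newly assembled transcript from 117250782 to 117282301 on chromosome 10, longer than the annotated gene, held 30.8% of the gene's FPKM in ND, 44.9% in HFD, 37.7% in CLE and 39.8% in LU. Without it the log2 difference of Lyz2 was 2.23 for HFD against ND, -1.52 for CLE against HFD and -1.09 for LU against HFD, all called. For Spi1, the transcript ENSMUST00000169852 held 6.93% of the FPKM on average in ND, 25.0% in HFD, 14.5% in CLE and 26.3% in LU. Its level in ND mouse 4 was near 0, whereas its share was 10.4% in both other ND mice. For Csf1, ENSMUST00000120243 measured 1.93 ± 0.728 FPKM in ND and 4.28 ± 0.652 in HFD (SD, n = 3), against 9.95 ± 0.664 and 11.5 ± 2.58 for the main transcript ENSMUST00000014743. These are estimates for overlapping transcripts and were not tested.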

How the data were processed

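Total RNA of eWAT was sequenced by the authors from 3 mice per group (12 libraries), and they deposited FPKM values per transcript. The submitters' processing notes name CASAVA 1.8.2, Bowtie2 2.2.3, TopHat2 2.0.12 and Cufflinks 2.2.1, without their roles. The deposited columns of the authors' own comparisons were not used, and 3 of 15 FPKM columns matched no sample and were left out. The column headed MD4 was taken as ND mouse 4 by inference. The authors' tests on counts were not repeated here, and the values did not fall on whole-read steps (at most 35.3% of low values within 0.1 of a step, over 976 genes).

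The 152210 transcript rows were matched to GENCODE M21 (GRCm38), which held 77000 of 78786 known transcripts, and FPKM was summed per gene, newly assembled transcripts included (class code j in the file). This gave 22947 genes with totals of 435095 to 455040 FPKM per library. With every deposited row the totals were uneven, from 1.29e+06 in HFD mouse 12 to 6.41e+06 in LU mouse 3. Rows not matched to a gene were left out of the sums. Genes with at least 1 FPKM in at least 3 libraries were tested in R 4.3.3 with limma 3.58.1 on log2(FPKM + 1), all 4 groups in 1 fit with empirical Bayes moderation, Benjamini-Hochberg adjustment over 12775 genes and a fold limit of 1.5. This scale understates changes of low genes. Ratios within a library were compared by an exact two-sided permutation test. Tables were handled in Python 3.11.15 (pandas 2.3.3, numpy 2.4.6). The fit was tested on simulated data.

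The members and lists were chosen with earlier results of these data known. Beside the members, the genes with the largest called change up and down per list and comparison were named, with Ptprc, Il34, Lyz1, Tlr4, Ly96, Itgam and Mertk whatever their values. A few genes that this rule names are not reported here. Ccr2, S100a8, S100a9, Ighm, Trac, Kit and the mast cell proteases were named after their values were seen where that rule did not name them. The alternatives tried were the pseudocount, filter, scaling, moderation, library weights, libraries in the fit, letter R, transcripts counted, replicate block and each library left out.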

Additional observations from a re-analysis of the deposited data

How the results depend on the processing

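Over the 54 differences of the 9 genes, 1374 of 1431 alternative values kept direction and side of the threshold, 46 lost and 2 gained a call, and 9 reversed. The counts of members called held within 1.5 times in every comparison except CLE against ND, where 6 became 1 with only the libraries without the letter R (Cd14, lower), 0 with only the groups compared and 0 with a replicate block, and ranged from 1 to 6 with a library left out (1 without ND mouse 2, 3 without ND mouse 4 or CLE mouse 11). The replicate block changed LU against ND from 7 to 6. Mouse numbers were taken as names within a group, and HFD shares none with the other groups. Deviations of same-numbered mice in ND, CLE and LU correlated between -0.0989 and 0.189. Mice with different numbers were not compared, so these values do not settle whether the numbers pair libraries. Reversed values were close to 0: for Csf1 in CLE against LU, 0.0664 without the letter R libraries, 0.0066 with quantile normalization, 0.0152 with median ratios, 0.0022 with equal totals, 0.0320 with the most abundant transcript and -0.0851 to 0.10 with a library left out, for Cd14 in CLE against LU 0.0200 with the replicate block, and for Csf1 in LU against ND -0.0304 with the most abundant transcript.

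Values relative to Ptprc depended on the reference. In the order most abundant transcript, no assembled transcripts and Laptm5 as reference, HFD against ND gave -0.25, -0.58 and -0.70 for Csf1r and -0.42, -0.75 and -0.53 for Lyz2. Lyz2 gave 0.18, 0.22 and 0.17 for CLE against HFD and 0.0865, 0.20 and 0.26 for LU against HFD. Without assembled transcripts and with Laptm5, Cd53 gave -0.21 and -0.33 for HFD against ND, and Csf1r 0.0264 and 0.16 for CLE against HFD. With Laptm5, Spi1 gave -0.24 for HFD against ND, and LU against HFD gave 0.13 for Csf1r, 0.11 for Spi1 and 0.0425 for Cd53. In the same order, the number higher in HFD fell from 7 to 3, 3 and 3, and the number lower in CLE from 7 to 4, 4 and 3. Without assembled transcripts and with Laptm5, the number lower in HFD went from 2 to 5 and 4, the number lower in LU from 5 to 2 and 2, and the number higher in CLE and in LU from 1 to 2 each. With a library left out, the number higher was 1 to 2 in CLE (2 without CLE mouse 11) and 1 to 2 in LU (2 without HFD mouse 18), and the number lower in LU 5 to 7. Cd68 and Cd14 have no newly assembled transcripts. Their values relative to Ptprc still moved without such transcripts in HFD against ND and CLE against HFD, through those of Ptprc. Shares of all tested genes were not counted under these alternatives. Why the references differ was not tested.

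Over all genes, adjusted p alone called 6445, 4298 and 3428 genes in HFD against ND, CLE against HFD and LU against HFD, in place of 3273, 2105 and 1590. With the replicate block 2 genes were called in CLE against ND and 419 in LU against ND, in place of 372 and 842. CLE against ND also gave 661 with adjusted p alone, 227 without a filter, 159 without the letter R libraries, 0 with only the groups compared, 224 without assembled transcripts, 207 with the most abundant transcript and 119 to 498 with a library left out, and LU against ND 1635 with adjusted p alone. The 1 gene called in CLE against LU was lost under 20 of 27 alternatives. The table used here holds no counts, so what depth limits could not be measured.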
